A study of Bos taurus with 12 samples.

Results

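Matrix metalloproteinases (MMPs) and their tissue inhibitors (TIMPs) were followed in bovine intramuscular preadipocytes during adipogenic differentiation. The members were taken by gene name from a list of 10, and all 10 were found among the 33714 mRNA rows measured. They were 6 MMPs (MMP1, MMP2, MMP3, MMP11, MMP14 and MMP19) and 4 inhibitors (TIMP1 to TIMP4). The cells, isolated from longissimus dorsi of Qinchuan calves, were sampled on 4 days, with 3 libraries a day and 12 in all. The 0 d group was taken before induction. The 3 d, 6 d and 9 d groups had received a cocktail of dexamethasone, IBMX and insulin, which was replaced after 48 hours by insulin alone. No uninduced culture of a later day was analysed here, so time in culture and induction cannot be told apart. Whether the 3 libraries of a day came from separate animals was not given in the sources used here, and p-values measure only the spread between these libraries.

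MMPs are zinc-dependent endopeptidases that cut collagens, other matrix proteins and proteins shed from the cell surface. Most are secreted or displayed as inactive proenzymes, and TIMPs bind the active site of the mature enzymes. In adipose tissue these enzymes remodel the pericellular collagen network around cells that change shape as they fill with lipid.

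Expression was given as FPKM, fragments scaled to transcript length and to the mapped fragments of a library, which allows levels to be compared between genes per length but gives no read depth. Of the 10 members, 8 had a mean FPKM of at least 0.1 over the 12 libraries and were tested together with all other such mRNAs, 15402 in total. MMP3, stromelysin-1, was listed at 0 in all 12 libraries. MMP1, the interstitial collagenase, was listed at 0 at 0 d and 6 d, at 0.11, 0.02 and 0.08 FPKM at 3 d, and at 0.05, 0.07 and 0 FPKM at 9 d. Neither was tested. Fold changes are on the log2(FPKM + 0.1) scale from limma, which understates the change of low genes, and a gene was called at an absolute log2 fold change over 1 with a Benjamini-Hochberg adjusted p under 0.05 over all 15402 mRNAs. With bulk RNA, fewer cells of a type and less RNA per cell cannot be told apart.

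The label of the cells was set against marker genes. All 8 fibroblast and preadipocyte markers were listed and 7 were tested, of which 4 rose and 2 fell at 3 d against 0 d (8.06% and 15.2% of all tested mRNAs), with a summed level of 116284 to 123626 FPKM at 0 d, 167313 to 175138 FPKM at 3 d, 130427 to 134894 FPKM at 6 d and 212248 to 225418 FPKM at 9 d. PDGFRA (log2 fold change 2.54), DCN (2.09) and THY1 (1.85) were among those that rose, and the 2 that fell were COL1A1 (-1.68) and PDGFRB (-1.38), the latter named to complete the count after its values were seen. COL3A1 was the most abundant of them and was not called in any comparison, and DLK1 was under the mean of 0.1 FPKM. Of the 10 adipocyte markers, 8 were tested, 5 of which rose and 1 fell at 3 d against 0 d (8.06% and 15.2% of all tested mRNAs), and their sum was 10.6 to 11.4 FPKM at 0 d, 101 to 112 FPKM at 3 d, 40.9 to 42.1 FPKM at 6 d and 40.8 to 49.1 FPKM at 9 d. FABP4, a fatty acid carrier and the most abundant of these, had 3.36, 3.02 and 3.52 FPKM at 0 d and 94.7, 86.2 and 92.3 FPKM at 3 d, and it declined to 24.5, 26.4 and 28.4 FPKM at 6 d and 7.59, 8.84 and 10.8 FPKM at 9 d. LEP, which encodes leptin, went the other way, with 2.17, 2.39 and 2.47 FPKM at 0 d, 0, 0.21 and 0 FPKM at 3 d, and 25.3, 16.6 and 19.6 FPKM at 9 d. It fell at 3 d against 0 d (log2 fold change -4.06) and rose at 9 d against 0 d (3.06). CD36, a fatty acid transporter, rose at 9 d against 0 d (4.33), and LPL, a lipase, fell at 6 d against 3 d (-1.76). The adipocyte markers thus did not move together at 3 d against 0 d. At 6 d against 0 d 6 of the 8 rose and none fell (3.39% and 7.97% of all tested mRNAs). At 9 d against 0 d 6 rose and none fell too (3.41% and 7.47%). Among those that rose on both days, CIDEC was at most 0.57 FPKM and PLIN4 at most 1.56 FPKM over the 12 libraries. ADIPOQ, which also rose on both days, had 1.64, 0.22 and 0.24 FPKM at 6 d. CEBPA, at 0.05 to 0.26 FPKM, passed the filter only through 3 d and was not called in any comparison. These low genes were picked for mention after their values were seen. PPARG and PLIN1 were not analysed here.

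Skeletal muscle markers were also present. Of 8 in the list, 7 were tested, and their sum was 824 to 938 FPKM at 0 d, 269 to 297 FPKM at 3 d, 378 to 421 FPKM at 6 d and 292 to 326 FPKM at 9 d. DES, which encodes desmin, was the most abundant, and 6 of the 7 fell at 3 d against 0 d, where 15.2% of all tested mRNAs fell. CKM, the muscle creatine kinase, had 132, 136 and 130.3 FPKM at 0 d and 2.51, 5.05 and 2.28 FPKM at 3 d, and MYOD1, ACTA1 and MYOG were lower at 9 d than at 0 d (log2 fold changes of -2.31, -1.58 and -2.08). At 6 d against 3 d CKM (2.02) and DES (1.19) rose and MYOD1 fell (-1.23), where 9.85% of all tested mRNAs rose and 9.23% fell. CKM rose at 9 d against 6 d as well (1.05). PAX7 was not analysed here. The part of these changes of muscle markers in the results below was not tested. The endothelial markers PECAM1, CDH5 and KDR were under a mean of 0.1 FPKM, as were HBA, HBB, HBG and ALAS2 among 5 blood markers, and the leukocyte markers PTPRC and ITGAM were listed at 0 in every library. The summed level of the 6 leukocyte markers was at most 3.74 FPKM and that of the 5 endothelial markers at most 3.49 FPKM. The 5 blood markers summed to at most 2.68 FPKM, with HBA1 the most abundant. These low markers also moved. HBA1 rose at 6 d against 0 d (log2 fold change 3.52, limma adjusted p = 0.0392) and was listed at 0 in the 3 libraries of 9 d, a fall against 6 d (limma adjusted p = 0.0219). CD14 rose at 3 d (1.71) and at 9 d (1.59) against 0 d. CSF1R, also a leukocyte marker, rose at 3 d against 0 d (1.23) and fell at 6 d against 3 d (-1.20). At 3 d against 0 d 2 of the 3 tested leukocyte markers rose and none fell (8.06% and 15.2% of all tested mRNAs). The endothelial gene TEK fell at 6 d against 3 d (-1.02). The part of such cells in the results below was not tested.

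MMP2, or gelatinase A, which degrades denatured collagen and basement membrane collagen, was the most abundant MMP member in all 12 libraries. It had 891, 902 and 942 FPKM at 0 d, 3173, 3677 and 3406 FPKM at 3 d, 2142, 2094 and 2049 FPKM at 6 d, and 2470.45, 2309.7 and 2388 FPKM at 9 d. The 3 d libraries were the highest and the 0 d libraries the lowest, and no 2 days overlapped. MMP2 rose at 3 d against 0 d by a log2 fold change of 1.90 (95% confidence interval 1.78 to 2.03, limma adjusted p = 1.79e-09). It was also called against 0 d at 6 d (2.30 times on the FPKM scale, log2 interval 1.08 to 1.32, limma adjusted p = 1.60e-07) and at 9 d (2.62 times on the FPKM scale, log2 fold change 1.39, 1.27 to 1.51, limma adjusted p = 9.00e-08). The decline from 3 d to 6 d was a log2 fold change of -0.70, inside the fold threshold.

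MMP14 encodes MT1-MMP, a membrane-anchored collagenase that activates proMMP2 in a complex with TIMP2. It had 605, 626 and 638 FPKM at 0 d, 542, 710.2 and 624 FPKM at 3 d, 244, 248 and 246 FPKM at 6 d, and 428, 376 and 426 FPKM at 9 d. The 0 d and 3 d libraries overlapped, the 6 d libraries were the lowest, and the 9 d libraries lay between. MMP14 fell at 6 d against 0 d, with a log2 fold change of -1.34 (-1.54 to -1.14, limma adjusted p = 1.97e-06), and against 3 d, with -1.34 (-1.54 to -1.14, limma adjusted p = 9.90e-07). At 9 d its log2 fold change was -0.61 against 0 d and 0.73 against 6 d, both inside the threshold. The ratio of MMP2 to MMP14 within a library, on the FPKM scale, was 1.44 to 1.48 on 0 d, 5.18 to 5.85 on 3 d, 8.32 to 8.79 on 6 d and 5.60 to 6.14 on 9 d.

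MMP19 is a secreted MMP that cuts basement membrane components. It had 364, 341 and 361 FPKM at 0 d, 132, 146 and 133 FPKM at 3 d, 415, 386 and 423 FPKM at 6 d, and 426, 346 and 417 FPKM at 9 d. Only the 3 d libraries stood apart, while the 9 d libraries overlapped both those of 0 d and those of 6 d. MMP19 fell at 3 d against 0 d (log2 fold change -1.38, -1.56 to -1.19, limma adjusted p = 3.13e-07) and rose again at 6 d against 3 d (1.58, 1.39 to 1.76, limma adjusted p = 1.68e-07).

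MMP11, or stromelysin-3, which is activated inside the cell by furin, was low. It had 6.36, 6.41 and 6.86 FPKM at 0 d, 6.55, 7.15 and 7.01 FPKM at 3 d, 3.36, 4.23 and 3.61 FPKM at 6 d, and 4.46, 4.10 and 3.91 FPKM at 9 d. The 0 d and 3 d libraries overlapped each other and lay above all libraries of 6 d and 9 d, which also overlapped. It was not called in any of the 5 comparisons. Its log2 fold change was -0.80 at 6 d against 0 d (-1.01 to -0.59, limma adjusted p = 0.000112) and -0.87 at 6 d against 3 d.

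Among the inhibitors, TIMP2 was the most abundant member in every library and was 14th of all mRNA rows by its mean of 9816 FPKM. It had 7437, 7087 and 7961 FPKM at 0 d, 13649, 14168 and 14584 FPKM at 3 d, 8646, 8854 and 8700.4 FPKM at 6 d, and 9024, 8687 and 9000.2 FPKM at 9 d. The 3 d libraries were the highest and the 0 d libraries the lowest, while 6 d and 9 d overlapped. Its log2 fold change at 3 d against 0 d was 0.92 (0.81 to 1.02, limma adjusted p = 9.28e-08), under the fold threshold. With median ratio scaling between libraries it was 1.00 (1.00361 before rounding) and passed, while with quantile normalization it was 0.85 and did not pass. CEP295NL lies inside TIMP2 in the RefSeq table of ARS-UCD2.0 and had 15.8 to 80.5 FPKM.

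TIMP3, which is bound to the matrix and also inhibits ADAM sheddases, had the widest range of the 8 tested members on the log2 scale, though not in FPKM. It had 138, 105 and 137 FPKM at 0 d, 2.87, 2.48 and 2.41 FPKM at 3 d, 77.7, 29.2 and 89.25 FPKM at 6 d, and 59.2, 46.1 and 52.7 FPKM at 9 d. The 3 d libraries were far under those of every other day, the 0 d libraries were the highest, and 6 d and 9 d overlapped. TIMP3 fell at 3 d against 0 d by a log2 fold change of -5.55 (-6.33 to -4.77, limma adjusted p = 4.49e-07) and rose at 6 d against 3 d by 4.46 (3.68 to 5.23, limma adjusted p = 3.17e-06).

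The calls of TIMP3 against 0 d at the later days were less firm. The log2 fold change was -1.09 at 6 d (-1.87 to -0.32, limma adjusted p = 0.0338) and -1.26 at 9 d (-2.04 to -0.48, limma adjusted p = 0.0172). The 6 d call was lost without 6 d replicate 2, the library with 29.2 FPKM, where the log2 fold change was -0.59. It was lost too with median ratio scaling (-0.93) and with quantile normalization (-0.96). The fold change stayed past the threshold, and only the p did not pass, without 0 d replicate 1 (-1.03, limma adjusted p = 0.0942), without 0 d replicate 3 (-1.03, limma adjusted p = 0.0876) and with only the 6 libraries compared (-1.09, limma adjusted p = 0.117). The 9 d call was lost by p alone without 0 d replicate 1 (-1.19, limma adjusted p = 0.0544), without 0 d replicate 3 (0.0514) and without 9 d replicate 2 (-1.17, 0.0579). SYN3, inside which TIMP3 lies in the RefSeq table of ARS-UCD2.0, had at most 0.06 FPKM.

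TIMP1, a secreted inhibitor that also binds proMMP9, had 724, 761 and 772 FPKM at 0 d, 544, 659.9 and 641 FPKM at 3 d, 953, 868 and 915 FPKM at 6 d, and 2192, 1969 and 2100.3 FPKM at 9 d. The 9 d libraries stood above all others, and no 2 days overlapped. TIMP1 rose at 9 d against 0 d (log2 fold change 1.47, standard error 0.0757, limma adjusted p = 4.61e-07) and against 6 d (1.19, 1.02 to 1.36, limma adjusted p = 4.62e-06). At 3 d and 6 d against 0 d the log2 fold changes were -0.30 and 0.28, inside the threshold. SYN1, inside which TIMP1 lies in the same assembly, ARS-UCD2.0, had 0.75 to 2.15 FPKM.

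TIMP4 was near the floor of the measurement. It had 0.17, 0.21 and 0.17 FPKM at 0 d, 0.30, 0.27 and 0.37 FPKM at 3 d, 0.17, 0.14 and 0.16 FPKM at 6 d, and 0.07, 0.08 and 0.09 FPKM at 9 d. The 3 d libraries were the highest and the 9 d libraries the lowest, while 0 d and 6 d overlapped. It was not called in any comparison. The log2 fold change at 9 d against 0 d was -0.65 (-0.94 to -0.37, limma adjusted p = 0.00288), and with a pseudocount of 0.01 it was -1.10 and passed. SYN2, inside which TIMP4 lies in ARS-UCD2.0, had 1.16 to 2.64 FPKM, above the level of TIMP4 itself.

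**Figure D1:**
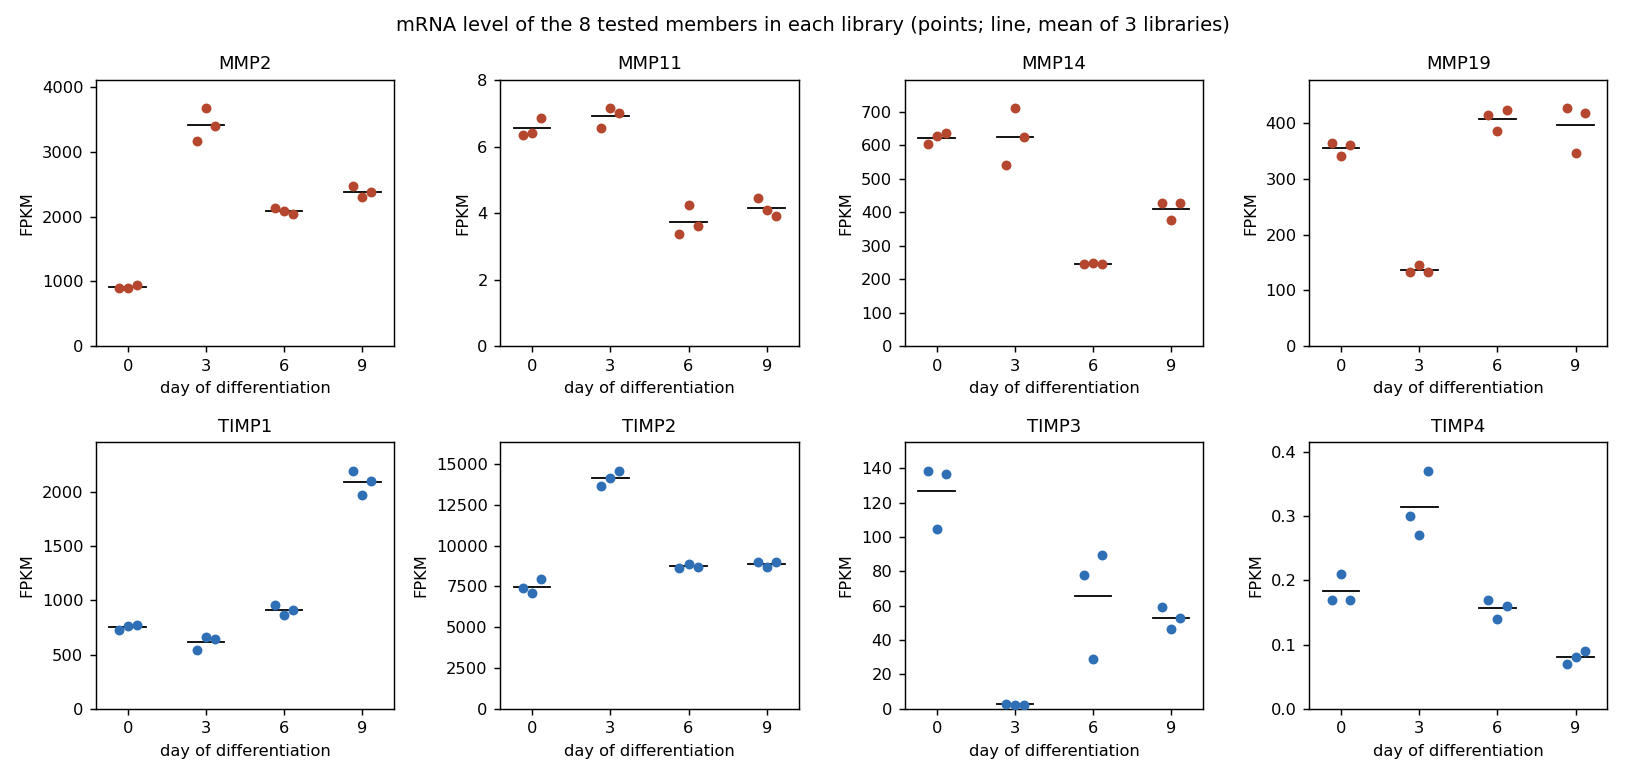
FPKM of each of the 8 tested members (vertical axis, starting at 0) against day of differentiation, with a point for each library and a line for the mean of 3 libraries. MMP2 and TIMP2 were highest at 3 d, MMP19 and TIMP3 were lowest at 3 d, MMP14 was lowest at 6 d and TIMP1 was highest at 9 d.

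At 3 d against 0 d, 1 tested member rose (MMP2) and 2 fell (MMP19 and TIMP3), where 8.06% of all tested mRNAs rose and 15.2% fell. At 6 d against 0 d, MMP2 rose while MMP14 and TIMP3 fell, where 3.39% of mRNAs rose and 7.97% fell. At 9 d against 0 d, MMP2 and TIMP1 rose and TIMP3 fell, where 3.41% of mRNAs rose and 7.47% fell. These 3 comparisons share the 0 d libraries.

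Between consecutive days, MMP19 and TIMP3 rose and MMP14 fell at 6 d against 3 d, where 9.85% of mRNAs rose and 9.23% fell. At 9 d against 6 d TIMP1 was the single member that rose and no member fell by the call rule, where 2.55% of mRNAs rose and 1.89% fell. The F test over the 4 days gave an adjusted p under 0.05 for 65.2% of mRNAs, and the 8 members were among them, with adjusted p from 7.99e-09 for MMP2 to 0.000142 for TIMP4.

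The median log2 fold change of the 8 members was 0.04 at 3 d, 0.03 at 6 d and -0.23 at 9 d against 0 d, beside -0.06, -0.15 and -0.19 over all tested mRNAs. It was -0.69 at 6 d against 3 d, beside -0.09 over all, and 0.09 at 9 d against 6 d, beside -0.04. Median ratio scaling moved the median over all mRNAs to 0.02, 0.0035 and -0.0086. Relative to the median of all mRNAs at 9 d against 0 d, the log2 fold change was 1.58 for MMP2, 1.67 for TIMP1 and -1.06 for TIMP3, and relative to that at 6 d it was 1.35 for MMP2, -1.19 for MMP14 and -0.94 for TIMP3. The share of called mRNAs that rose at 9 d against 0 d was 31.3% as reported, 46.4% with median ratio scaling and 48.5% with quantile normalization. At 6 d against 0 d it was 29.8%, 40.4% and 43.2%, and at 3 d against 0 d 34.6%, 39.8% and 45.1%. The called changes of MMP2, MMP14, MMP19 and TIMP1 kept their direction and their call under both scalings.

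**Figure D2:**
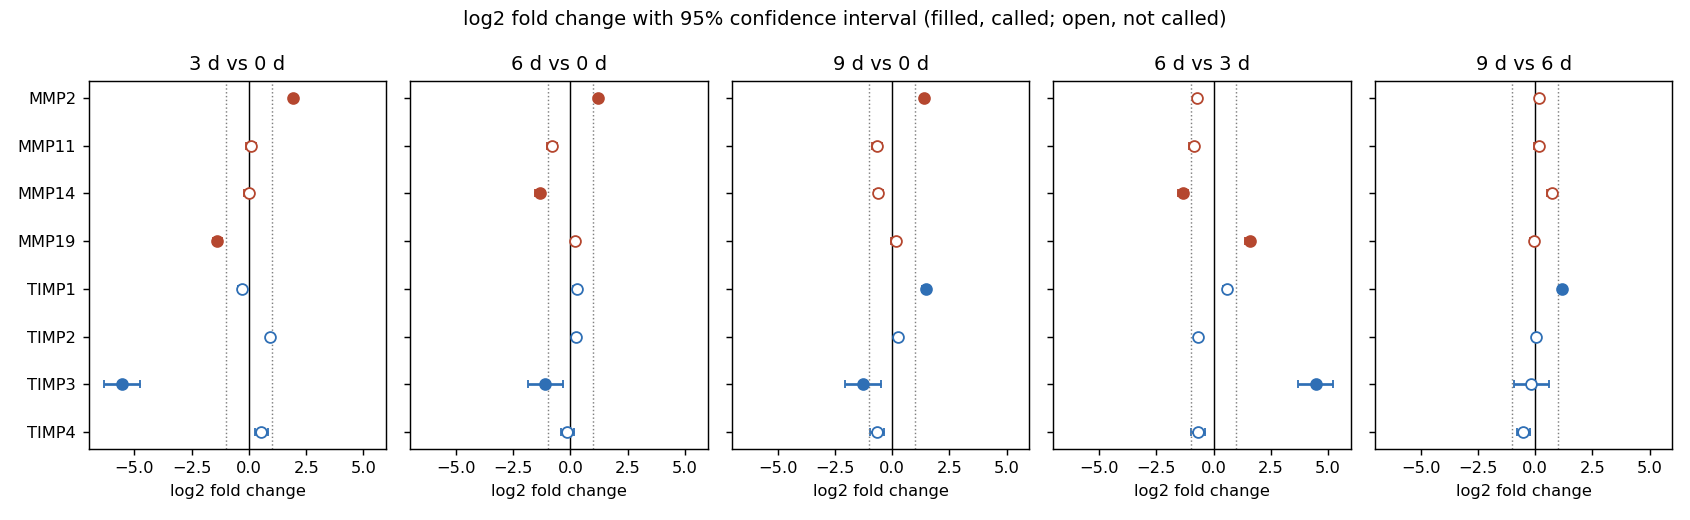
log2 fold change (horizontal axis) of the 8 tested members in the 5 comparisons, with 95% confidence intervals, some of which are shorter than the point. Filled points were called, open points were not, and dotted lines mark the threshold of 1. The longest intervals belong to TIMP3, which was at -5.55 at 3 d against 0 d.

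The levels were then summed within each library, with no test. The 6 MMP members summed to 1866, 1875 and 1947 FPKM at 0 d, 3854, 4540.3 and 4170 FPKM at 3 d, 2803, 2732 and 2723 FPKM at 6 d, and 3329, 3036 and 3235 FPKM at 9 d. The 4 TIMP members summed to 8299, 7952 and 8869 FPKM at 0 d, 14196, 14830 and 15227 FPKM at 3 d, 9677, 9752 and 9704 FPKM at 6 d, and 11274, 10702 and 11153 FPKM at 9 d. Both sums were highest at 3 d, and no 2 days overlapped in either.

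The ratio of the TIMP sum to the MMP sum is unchanged when each library is scaled by a single factor. Quantile normalization is not such a scaling, and the ratio was not recomputed with it. The ratio was 4.45, 4.24 and 4.55 in 0 d libraries, 3.68, 3.27 and 3.65 in 3 d libraries, 3.45, 3.57 and 3.56 in 6 d libraries, and 3.39, 3.53 and 3.45 in 9 d libraries. For these members the 0 d libraries lay above all others, and the 3 later days overlapped. With the further listed MMP genes added to the MMP sum, the ratio was 3.45 to 3.65 in 0 d libraries and 3.13 to 3.50 in 3 d libraries, which overlapped, so the separation of 0 d from 3 d holds only for the 6 chosen members. It was 3.11 to 3.21 in 6 d libraries and 3.14 to 3.28 in 9 d libraries, both under those of 0 d. TIMP transcripts thus exceeded MMP transcripts per length in all 12 libraries. The ratio describes mRNA and not protein or enzyme activity, which were not analysed here.

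The makeup of each sum also differed by day. MMP2 made up 47.7% to 48.4% of the MMP sum in 0 d libraries, 81.0% to 82.3% in 3 d libraries, 75.3% to 76.6% in 6 d libraries and 73.8% to 76.1% in 9 d libraries. MMP14 made up 32.4% to 33.4% at 0 d and 8.70% to 9.08% at 6 d. TIMP1 made up 3.83% to 4.45% of the TIMP sum at 3 d and 18.4% to 19.4% at 9 d, and TIMP2 80.0% to 96.1% over the 12 libraries.

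**Figure D3:**
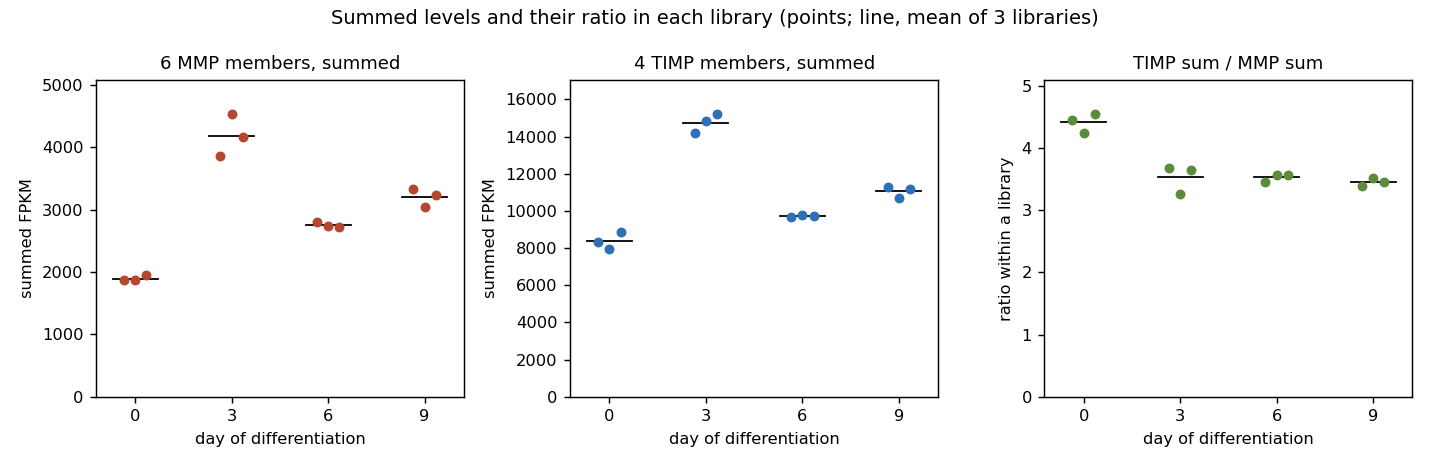
Summed FPKM of the 6 MMP members, summed FPKM of the 4 TIMP members, and the ratio of the sums within a library (vertical axes, starting at 0), against day of differentiation. Points are libraries and lines are means of 3 libraries. The ratio was 4.24 to 4.55 at 0 d and 3.27 to 3.68 at 3 d for these members, and the 2 days overlapped when further MMP genes were added.

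Of 18 further MMP genes, 14 were listed and 6 were tested, of which 1 rose and 2 fell at 3 d against 0 d. The 1 that rose, MMP13, and 1 of those that fell, MMP28, both picked for mention after their values were seen, passed the filter only through the day where they were high, so this count carries no weight. MMP23, a membrane-bound MMP released by proprotein convertases, had 329.6, 295 and 368 FPKM at 0 d, 29.6, 41.1 and 40.4 FPKM at 3 d, 235, 238 and 219 FPKM at 6 d, and 167, 139 and 175 FPKM at 9 d. It was lowest at 3 d, as MMP19 and TIMP3 were, and it fell at 3 d against 0 d (log2 fold change -3.17, limma adjusted p = 3.13e-08) and rose at 6 d against 3 d (2.65, limma adjusted p = 1.68e-07). MMP16, which encodes the membrane-type MT3-MMP, had 134, 133 and 116 FPKM at 0 d, 176, 158 and 158 FPKM at 3 d, 72.7, 72.3 and 77.2 FPKM at 6 d, and 91.1, 90.4 and 83.9 FPKM at 9 d. It fell at 6 d against 3 d (-1.14, limma adjusted p = 7.82e-07).

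The inducible collagenase MMP13 and the gelatinase MMP9 were chosen for mention after their values were seen. MMP13 was listed at 0 in the 3 libraries of 0 d and had 0.41, 0.74 and 0.50 FPKM at 3 d. MMP9 was listed at 0 at 0 d and 3 d and had 0.20, 0.32 and 0.22 FPKM at 9 d, under the filter. MMP7, MMP8 and MMP20 were listed at 0 in all 12 libraries.

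Genes that activate, localise or clear MMPs formed a list of 20, of which 18 were tested. At 3 d against 0 d 4 rose and 7 fell (8.06% and 15.2% of all tested mRNAs), with a median log2 fold change of -0.14, and at 6 d against 3 d 7 rose and 3 fell (9.85% and 9.23% of all). The median over all tested mRNAs at 3 d against 0 d was -0.06. CLDN1, chosen after its values were seen, was among the 3 that fell and passed the filter only through 3 d, where it was high, so the number that fell carries no weight. At 6 d against 0 d 4 rose and 2 fell (3.39% and 7.97% of all), at 9 d against 0 d 5 rose and 2 fell (3.41% and 7.47%), and at 9 d against 6 d 2 rose and 1 fell (2.55% and 1.89%).

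ITGB3, an integrin subunit, had 215, 205 and 200.2 FPKM at 0 d, 22.0, 24.5 and 24.0 FPKM at 3 d, and 202, 191 and 191 FPKM at 6 d. CD44, a hyaluronan receptor that docks MMPs at the cell surface, had 53.8, 53.5 and 58.8 FPKM at 0 d, 5.91, 6.30 and 7.16 FPKM at 3 d, and 32.4, 34.4 and 35.5 FPKM at 6 d. PLAU, the urokinase that converts plasminogen to plasmin, had 42.0, 32.25 and 44.1 FPKM at 0 d, 5.57, 5.80 and 6.84 FPKM at 3 d, and 21.6, 27.3 and 27.5 FPKM at 6 d. Each of these 3 genes fell at 3 d against 0 d, with log2 fold changes of -3.13, -3.08 and -2.67, and rose at 6 d against 3 d, with 3.05, 2.39 and 2.05.

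A2M, a broad protease inhibitor that traps MMPs, had 0.27, 0.76 and 0.60 FPKM at 0 d, 7.12, 7.26 and 7.13 FPKM at 3 d, and 8.89 to 9.94 FPKM at 9 d. It rose at 3 d against 0 d (log2 fold change 3.58, limma adjusted p = 8.47e-07). LRP1, the endocytic receptor that clears complexes of MMPs with TIMPs, was chosen after its values were seen and had 37615 to 70877 FPKM over the 12 libraries.

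The ADAM proteases, several of which TIMP3 inhibits, numbered 9 in the list, of which 8 were tested. Of these 1 rose and 2 fell at 3 d against 0 d, where 8.06% of all tested mRNAs rose and 15.2% fell, so the number is near the share over all. ADAM33 had 802, 784 and 746 FPKM at 0 d, 113, 101 and 112 FPKM at 3 d, 221, 209 and 208 FPKM at 6 d, and 314, 275 and 303 FPKM at 9 d. It fell at 3 d, 6 d and 9 d against 0 d, with log2 fold changes of -2.84, -1.87 and -1.39. ADAM15 fell at 3 d (-1.80) and ADAM8 rose (1.87). ADAM19 rose at 6 d against 0 d, with a log2 fold change of 1.53.

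Of 13 AP-1 and ETS transcription factors, which are known to act at MMP promoters, 13 were tested and 3 fell at 3 d against 0 d, while none rose by the call rule of limma, where 15.2% of all tested mRNAs fell and 8.06% rose. FOSL1 had 34.2, 41.8 and 33.2 FPKM at 0 d, 4.56, 4.24 and 4.56 FPKM at 3 d, 14.6, 19.45 and 13.2 FPKM at 6 d, and 70.3, 62.4 and 49.5 FPKM at 9 d. It fell at 3 d against 0 d (log2 fold change -3.00) and rose at 9 d against 6 d (1.94). JUNB had 16.5, 16.6 and 18.4 FPKM at 0 d and 50.0, 49.2 and 52.8 FPKM at 9 d, and it rose at 9 d against 6 d (1.37), where JUN fell (-1.59). ETV1 fell at 3 d against 0 d (-3.05).

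Cytokine signals formed a list of 12, of which 9 were tested, and 3 rose and 1 fell at 9 d against 0 d. IL6, 1 of the 3 and chosen after its values were seen, passed the filter only through 9 d, where it was high, so this count carries no weight. PTGS2, the inducible cyclooxygenase, had 1.74, 1.54 and 1.36 FPKM at 0 d and 15.3, 18.8 and 14.5 FPKM at 9 d, and it rose at 9 d against 0 d (log2 fold change 3.30, limma adjusted p = 5.27e-07). NFKBIA rose at 3 d against 0 d (2.67) and CXCL8 fell at 6 d against 0 d (-2.31). RELA fell at 3 d against 0 d (-1.07), with 5.09, 12.3 and 5.48 FPKM at 3 d.

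Of 8 genes around the glucocorticoid receptor, 7 were tested, and 5 rose at 3 d against 0 d with none called lower (8.06% and 15.2% of all tested mRNAs). Their median log2 fold change was 2.09. ZBTB16 had 0.53, 0.25 and 0.25 FPKM at 0 d, 355, 330.0 and 162 FPKM at 3 d, 84.4, 93.0 and 63.3 FPKM at 6 d, and 15.6, 9.89 and 11.5 FPKM at 9 d. Its log2 fold change at 3 d against 0 d was 9.29 (limma adjusted p = 8.70e-09), and FKBP5 (7.02), PER1 (2.94) and TSC22D3 (2.09) rose as well. Dexamethasone was in the medium of the first 48 hours, and its part in the levels of the members was not tested.

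Of 12 matrix substrates of these enzymes, 11 were tested. At 3 d against 0 d 4 rose and 2 fell (8.06% and 15.2% of all tested mRNAs), and at 6 d against 0 d 6 rose with none called lower (3.39% and 7.97%). COL4A2, a basement membrane collagen chain, rose at 3 d against 0 d with a log2 fold change of 2.37, and its partner COL4A1 rose by 4.01 times on the FPKM scale. DCN, which encodes decorin, rose by a log2 fold change of 2.09, or 4.26 times. COL1A1, a fibrillar collagen chain, had 2949.6, 3146 and 2957 FPKM at 0 d, 877, 987 and 958 FPKM at 3 d, and 3159, 3112 and 2969 FPKM at 6 d. It fell at 3 d against 0 d (-1.68) and rose at 6 d against 3 d (1.71).

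The mRNAs most alike to each member were found by Pearson r of log2(FPKM + 0.1) over the 12 libraries among 10221 named mRNAs with a mean FPKM of at least 1. The 12 points share 4 days, so r largely follows the day means and is given as a description. MMP2 was most alike to CCDC3 (r = 0.992), FZD1 (0.989) and SMOC2 (0.984). MMP14 was most alike to TRAPPC9 (0.983), OAF (0.980) and GAS1 (0.974), and MMP19 to FRMD4A (0.993), FMNL3 (0.992) and ARNT2 (0.992). TIMP1 was most alike to CDH26 (0.988), which had 0.04 to 1.10 FPKM up to 6 d and 32.0, 34.65 and 30.1 FPKM at 9 d. CDH26 passed the mean of 1 FPKM only through 9 d, where TIMP1 was also highest, so this r carries no weight. QSOX1 was also among the mRNAs most alike to TIMP1 (0.984) and had 891 to 1973 FPKM over the 12 libraries.

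TIMP2 was most alike to NFATC2IP (r = 0.994), LGALS3BP (0.992) and POLR1B (0.992), and TIMP3 to ITSN2 (0.985), ATP10A (0.985) and ARHGEF25 (0.984). TIMP4 was most alike to SLX4IP (0.981) and KLF15 (0.970), and MMP11 to PLCD3 (0.979) and to a transcript of the mRNA table named MIR22 (0.982), whose FPKM is not a level of the mature miRNA. Between members, MMP11 and MMP14 had r = 0.917, MMP19 and TIMP3 0.932, and TIMP2 and TIMP3 -0.975, each over 12 libraries.

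Circular RNAs were counted by back-spliced reads, with 5358 to 10729 counts in a library. Of 14070 circRNA rows, 11 had a member as host gene, 6 of them MMP2, 4 TIMP1 and 1 MMP14. The TIMP1 rows lay on both strands, circRNA3246 and circRNA9664 on plus and circRNA3245 and circRNA8654 on minus. A host name alone thus does not show that a circRNA came from transcripts of that gene. Of the 11 rows, all but 1 had at most 4 counts over the 12 libraries. The exception, circRNA3246, was assigned to TIMP1 as 1 exon on the plus strand of chromosome X from 85943286 to 85943488. It had 0, 224 and 0 counts at 0 d, 109, 0 and 0 counts at 3 d, 223, 219 and 260 counts at 6 d, and 593, 585 and 749 counts at 9 d. A count of 0 in a library allows a share of up to 0.0350% to 0.0420% of its circRNA counts in these 4 libraries, as a 95% bound for counting error only, whereas the 9 d libraries had 6.04% to 6.98%.

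All 6 d and 9 d libraries thus held this circRNA, and only 1 library each of 0 d and 3 d did. The 9 d libraries were the highest for circRNA3246 and for TIMP1 mRNA. The edgeR test called it in each comparison with 0 d, where 0.813% of tested circRNAs were called at 3 d, 0.530% at 6 d and 0.566% at 9 d, but these calls are not used. At 3 d against 0 d the log2 fold change was -1.25 and became 8.14 without 0 d replicate 2 and -9.43 without 3 d replicate 1. That call was lost without 3 d replicate 2 (-0.59) or 3 d replicate 3 (-0.61). At 6 d the log2 fold change was 1.74, became 11.2 without 0 d replicate 2, and lost its call without 0 d replicate 1 (1.16) or 0 d replicate 3 (1.16). At 9 d it was 2.74 and stayed called without any library, but it ran from 2.16 without 0 d replicate 3 to 12.2 without 0 d replicate 2, so its size is not known. The counts stand as a description. The labels state poly(A) selection, which would deplete circular RNA, whereas the methods of the study state rRNA depletion, so how fully circRNAs were captured is not known.

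**Figure D4:**
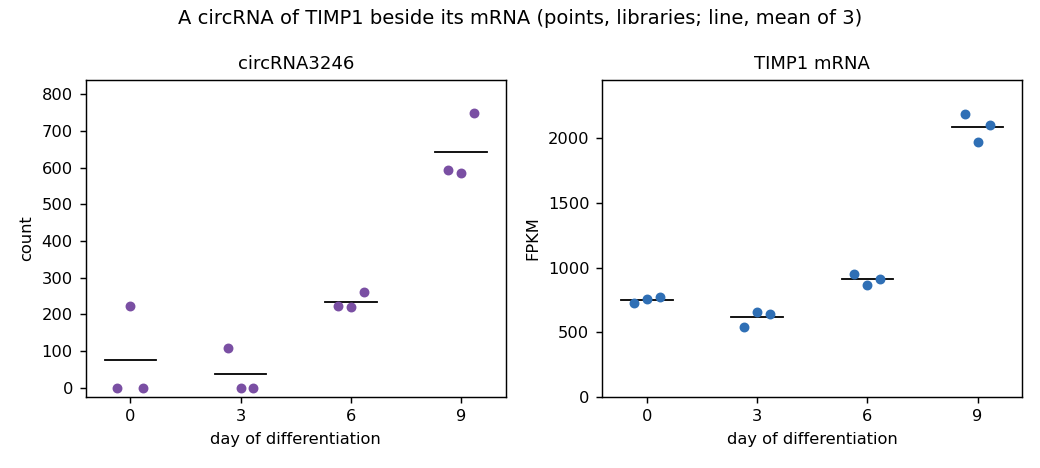
Counts of circRNA3246 and FPKM of TIMP1 mRNA (vertical axes) against day of differentiation, with a point for each library and a line for the mean of 3. At 0 d and 3 d a single library of each day held the circRNA, with 224 and 109 counts.

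Several limits apply to these values. FPKM carry no read depth, and the read totals that the study reports were not used here. The precision of low genes such as TIMP4, MMP1 and MMP11 was therefore not weighed by their reads. The mRNA levels of MMP2, MMP14 and TIMP2 do not give the activation of proMMP2, which depends on proteins not analysed here. Each later day differs from 0 d both in time and in medium, and a change in the mix of cells, with muscle markers lower after 0 d, was not separated from change within cells. The fold threshold divides close values, as for TIMP2 at 3 d, and the TIMP3 call at 6 d against 0 d depended on single libraries and on scaling, while at 9 d leaving out a library moved only the p past its limit.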

How the data were processed

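Per the labels, RNA of cultured bovine intramuscular cells was sequenced as paired reads on 4 days, with 3 libraries a day. The labels state poly(A) selection and the methods of the study rRNA depletion. The authors deposited FPKM for mRNAs, and for circRNAs they deposited counts of back-spliced reads. The submitters' notes name HISAT2 2.0, StringTie 1.3.0 and a mouse build, whereas the methods of the study name the cattle assembly ARS-UCD1.2. The authors name edgeR for their tests. FPKM are not counts, so limma 3.58.1 (trend) was fitted here to log2(FPKM + 0.1) of 15402 mRNAs with a mean FPKM of at least 0.1, with a mean for each day over all 12 libraries and Benjamini-Hochberg adjustment. edgeR 4.0.16 (quasi-likelihood, TMM) was run on 2828 circRNAs with at least 5 counts. Its calls for the 1 circRNA described were set aside after they were seen, because the sign, the call or the size turned on single libraries. Both scripts were tested on simulated data, where edgeR recovered few changes at a spread that was set by hand and not estimated from these counts. Alternatives were other pseudocounts, filters, scalings, fits and leaving out each library. Of each gene list, up to 4 genes are named that were called without overlap between libraries, by size of change, with a mean FPKM of at least 1. Marker lists also name the most abundant gene, genes at or near 0, and TEK, HBA1 and CSF1R, chosen after their values were seen. Members and lists were chosen with earlier results of these data known. lncRNA and miRNA tables were not used here. Analyses used R 4.3.3.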

Additional observations from a re-analysis of the deposited data

How the results depend on the processing

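The number of mRNAs called moved by over 1.5 times with a pseudocount of 1, to 2184 from 3585 at 3 d, 967 from 1749 at 6 d and 888 from 1675 at 9 d against 0 d, to 1688 from 2939 at 6 d against 3 d, and to 368 from 683 at 9 d against 6 d. When the filter was raised to a mean of 1 FPKM, 1114 were called at 9 d against 0 d, with 11331 mRNAs tested. The cause of the other moves was not tested. The number of members called stayed within 1.5 times under the 75 alternatives run. The ratio of TIMP to MMP sums was only recomputed without each library, which cannot move a mean of 3 by 1 SD, whereas adding the further MMP genes moved its 0 d mean from 4.41 to 3.55.

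Where a member changed sign, its limma adjusted p under that alternative was at least 0.315. The log2 fold change of MMP14 at 3 d against 0 d was 0.0851 with median ratio scaling and 0.0919 with quantile normalization, and -0.10 to 0.10 without a library. TIMP4 at 6 d against 0 d was 0.0787 with quantile normalization. Without a library, TIMP3 at 9 d against 6 d was -0.67 to 0.14 and MMP19 -0.10 to 0.0486. For these the cause was not tested. For circRNA3246, with alternatives chosen after seeing the data, the log2 fold change at 3 d against 0 d ran from -9.43 to 8.14 without a library, and DESeq2 gave no adjusted p.

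Replicate numbers are shared between days. Same-numbered libraries correlated at -0.10 to 0.11 in their deviations from the day means, and 2 of 18 pairs were over 0.1. Such correlations cannot decide whether same-numbered libraries share an animal, a culture or a batch. Pairs of other numbers correlated at -0.19 to 0.18. With a replicate block, which changed no call of a member, 3591, 1746, 1683, 2933 and 657 mRNAs were called in the 5 comparisons. FPKM give no read depth, and low genes such as TIMP4 are limited by it.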
